A study of Drosophila melanogaster with 6 samples.

Results

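The meiotic arrest genes examined here are 9 transcription regulators of the Drosophila melanogaster testis, namely can, sa, mia, nht and Taf12L (also called rye), which encode testis forms of TATA-binding protein associated factors (tTAFs), and aly, comr, topi and tomb, which encode subunits of the testis meiotic arrest complex (tMAC). They were taken as a list of gene symbols and matched to probe sets by current symbol or synonym. All 9 had a named probe set, out of 11953 genes with one, and Taf12L had a further one. Whole male larvae of the third instar were the source of RNA, 50 animals to a preparation, and each preparation was read on an Affymetrix Drosophila Genome 2.0 array with a single colour. Mutant males were y+ w roX1- roX2-/ Y, with SMC17A as the roX1 allele (3 arrays). Control males were y+ w roX1+ roX2-/ Y (3 arrays). Both groups thus share w and roX2-, so the control is not a wild type for roX2 although its titles call it one, and the roX2 allele is not named in the labels. The preparations are described as independent, and the 3 arrays per group limit the precision of every value.

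In the male germ line, growing spermatocytes switch on a large set of genes for meiosis and sperm formation before they divide. tMAC is a testis version of the conserved MMB/dREAM complex, and the tTAFs are testis copies of subunits of the general factor TFIID. Loss of a gene of either group leaves spermatocytes arrested before the meiotic divisions, with spermatid genes not switched on, hence the name meiotic arrest genes. The testis of a larva in the third instar holds spermatogonia and spermatocytes, and it was measured here as one organ within the whole animal. A lower signal in such bulk RNA can come from fewer spermatocytes or from less RNA per cell, and these cannot be told apart.

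Signals are given as intensities after scaling. On every array the autosomal genes in the upper 50% of probe sets were brought to a median of 100. Log2 differences are mutant minus control. Genes whose probe set lay in the upper 50% by mean log2 signal (7801 genes) were tested with limma at a Benjamini-Hochberg adjusted p under 0.05. Of the meiotic arrest genes 4 met this limit (sa, mia, Taf12L and topi), and 5 lay below it (can, nht, aly, comr and tomb), so these 5 were tested in a second fit of all 11953 genes. The limit was applied to the mean over all 6 arrays, and the median probe set had a scaled signal of 28. Within groups, arrays correlated across genes at 0.972 or higher, against 0.889 to 0.926 between groups. No probe set in the probe table is named roX1 or roX2, so the genotype was not checked at those genes.

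Most of the meiotic arrest genes were lower in the mutant, and 2 were higher. In the fit of all genes can, sa, nht, Taf12L and comr fell, mia and topi rose, and aly and tomb did not pass. In that fit 25.8% of all genes were called lower and 17.5% higher, against 5 and 2 of the 9. In the fit of brighter genes, where 32.4% of all genes were called lower and 23.1% higher, sa and Taf12L fell and mia and topi rose. For each of the 9 the 3 mutant signals lay wholly on one side of the 3 control signals, below them for 7 genes and above them for 2; among all genes 32.7% lay wholly below and 22.2% wholly above. The median log2 difference was -0.48 over the 9 genes, against -0.08 over all genes in the same fit, and -0.10 over the 4 brighter genes, against -0.06 over all brighter genes.

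**Figure D1:**
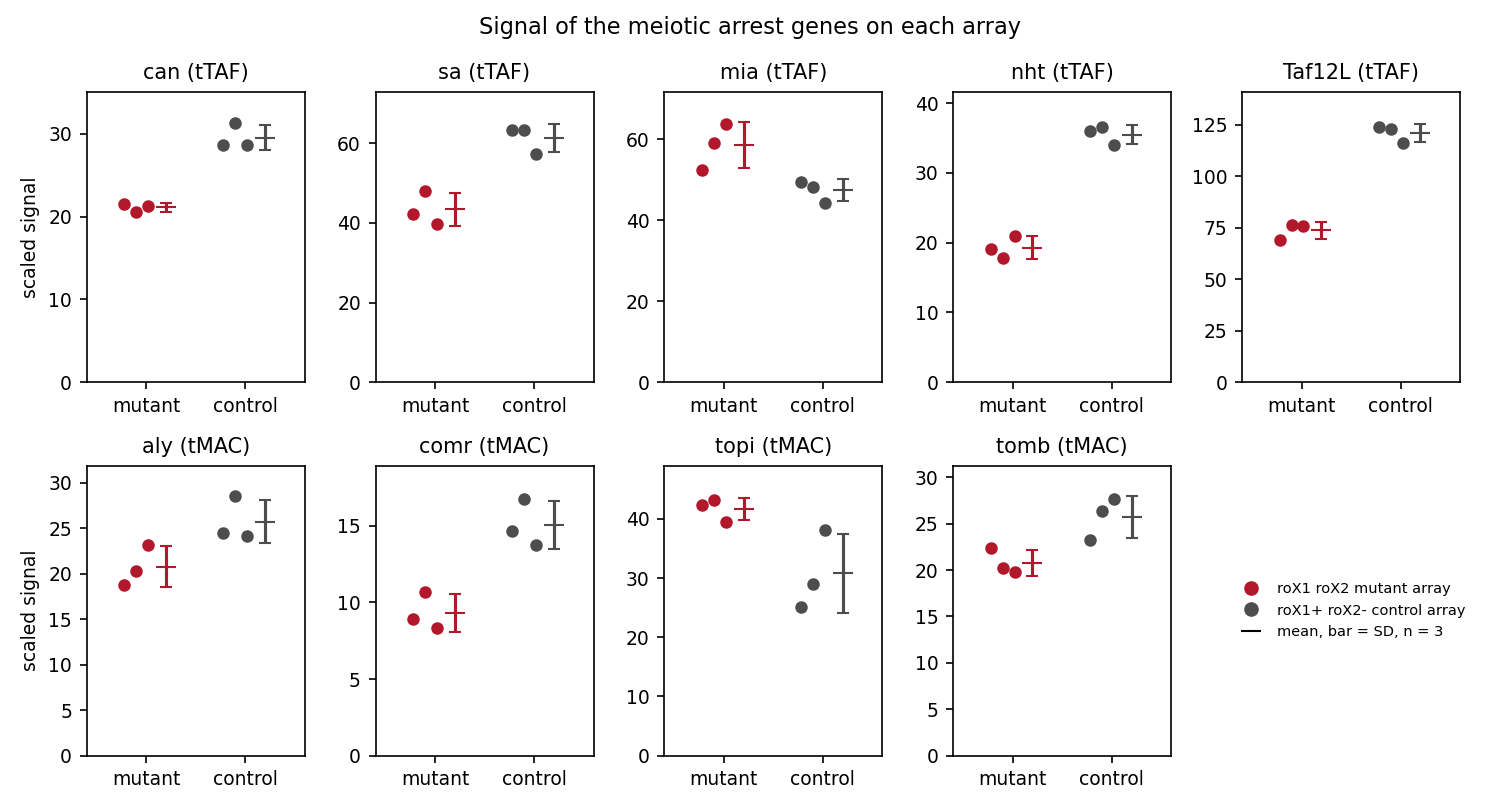
Scaled signal of each meiotic arrest gene (1 panel per gene, linear axis from 0, scales differ between panels) on the 3 roX1 roX2 mutant arrays and the 3 roX1+ roX2- control arrays; horizontal marks are means and bars are SD. Points of the mutant lie below all control points for 7 genes and above them for mia and topi.

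Among the tTAF genes 4 of the 5 fell in the fit of all genes, where 25.8% of all genes were called lower. In the fit of brighter genes 2 of 3 fell, against 32.4% of all brighter genes. Taf12L, counted in both, fell on its brighter probe set and not on its further one. nht, the testis counterpart of Taf4, had signals of 19.1, 17.8 and 21.0 on the mutant arrays, against 36.0, 36.5 and 34.0 on the control arrays. The groups lay far apart relative to their spread, with means of 19.3 ± 1.61 in the mutant and 35.5 ± 1.35 in the control (SD, n = 3 each), a fall of 45.8%. Its log2 difference was -0.88 (SE 0.111, limma adjusted p = 0.000602 over all genes). The mutant signals of nht lay below 28, the median probe set, so the size of its fall is less certain than its direction.

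Taf12L, the testis counterpart of Taf12, had signals of 68.9, 76.2 and 76.0 on the mutant arrays, against 124, 123 and 116 on the control arrays. The control arrays were tightly grouped and every one exceeded the highest mutant array. The means were 73.7 ± 4.16 in the mutant and 121 ± 4.25 in the control (SD, n = 3 each), a log2 difference of -0.72 (SE 0.0815, limma adjusted p = 0.00032). A further probe set named Taf12L did not show this: it gave 9.29, 26.2 and 29.3 on mutant arrays, against 14.8, 19.9 and 24.1 on control arrays, a log2 difference of 0.00. That probe set lay below the signal limit and its groups overlapped. When both probe sets were averaged in the fit of all genes, the Taf12L difference was -0.36 and did not pass (limma adjusted p = 0.244). The gene dcma overlaps Taf12L on 2L and stood at 0.10 (adjusted p = 0.767, fit of all genes).

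sa, the testis counterpart of Taf8, had signals of 42.3, 48.0 and 39.8 on the mutant arrays, against 63.4, 63.4 and 57.2 on the control arrays. The gap between the groups exceeded the spread within either, with means of 43.4 ± 4.19 in the mutant and 61.4 ± 3.58 in the control (SD, n = 3 each). The log2 difference of sa was -0.50 (SE 0.101, limma adjusted p = 0.00387). The gene rgn overlaps sa on 3L and went the other way, at 0.52 (adjusted p = 0.00261, fit of all genes).

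can, the testis counterpart of Taf5, had signals of 21.6, 20.5 and 21.3 on the mutant arrays, against 28.6, 31.3 and 28.7 on the control arrays. The mutant arrays differed little from one another, at 21.1 ± 0.547, and all lay under the control arrays, at 29.6 ± 1.54 (SD, n = 3 each). The log2 difference of can was -0.48 (SE 0.104, limma adjusted p = 0.0067 over all genes). As for nht, the mutant signals of can lay under the median probe set.

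mia, the testis counterpart of Taf6, was the only tTAF gene of the 5 that was higher in the mutant. It had signals of 52.5, 59.1 and 63.8 on the mutant arrays, against 49.6, 48.3 and 44.3 on the control arrays. The groups were separated by little, with means of 58.5 ± 5.68 in the mutant and 47.4 ± 2.72 in the control (SD, n = 3 each). The log2 difference of mia was 0.30 (SE 0.102, limma adjusted p = 0.0355). It lost its call without mutant array 2 (adjusted p = 0.101), mutant array 3 (0.119), control array 2 (0.0644) or control array 3 (0.115), with log2 differences of 0.23 to 0.31.

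Summed over the 5 tTAF genes, the scaled signal was 204 to 222 on the mutant arrays and 280 to 302 on the control arrays. These sums did not overlap, and the median log2 difference of the 5 was -0.50. Among all single genes 32.7% lay wholly below. Taf12L was the brightest of the 5, with means of 73.7 in the mutant and 121 in the control, so it weighs most in the sums. Its further probe set did not show the fall.

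The tMAC genes were more mixed. comr, which encodes a nuclear protein of spermatocytes, had signals of 8.92, 10.7 and 8.34 on the mutant arrays, against 14.7, 16.8 and 13.7 on the control arrays. No mutant array reached the lowest control array, and the log2 difference was -0.70 (SE 0.164, limma adjusted p = 0.00998 over all genes). comr was the dimmest of the 9 probe sets, and all 6 of its signals lay below the median probe set of 28. With an offset of 50 added before the logarithm, its difference was -0.13 and passed (limma adjusted p = 0.00791), and over all alternatives run the adjusted p of comr was 0.00791 to 0.0398.

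aly, whose protein belongs to the LIN-9 family, had signals of 18.7, 20.4 and 23.2 on the mutant arrays, against 24.5, 28.5 and 24.2 on the control arrays. tomb, a cysteine-rich protein of the tesmin family, had 22.3, 20.2 and 19.8 on the mutant arrays, against 23.2, 26.4 and 27.6 on the control arrays. For both genes the groups nearly touched, and neither passed in the fit of all genes: aly stood at -0.31 (SE 0.13, limma adjusted p = 0.0863) and tomb at -0.31 (SE 0.12, adjusted p = 0.0693). The 95% intervals, -0.61 to -0.01 for aly and -0.58 to -0.03 for tomb, include falls as large as those of sa and can. tomb overlaps Cap-D3 on 2L, a dim gene that stood at 0.26 (adjusted p = 0.745).

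topi, a zinc finger protein, was the only tMAC gene of the 4 that was higher in the mutant. Its signals were 42.4, 43.1 and 39.5 on the mutant arrays, against 25.2, 29.0 and 38.2 on the control arrays. Control array 3 lay close to the mutant arrays and well above the other control arrays, so the spread was larger in the control (SD 6.69) than in the mutant (SD 1.92, n = 3 each). The log2 difference of topi was 0.46 (SE 0.154, limma adjusted p = 0.0343). The call was lost without mutant array 1 (adjusted p = 0.058), mutant array 2 (0.0991), mutant array 3 (0.0551), control array 1 (0.095) or control array 2 (0.0936), while without control array 3 the difference was 0.62 and passed (0.0063).

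Over the 4 tMAC genes the summed signal overlapped between the groups, at 90.8 to 94.4 on the mutant arrays and 87.6 to 104 on the control arrays. The sum joins topi, which rose, with comr, which fell. All 9 genes kept their direction under each scaling of the arrays and on leaving out any 1 array. Without rescaling the median difference of all brighter genes was 0.07 in place of -0.06, and in that setting Taf12L stood at -0.59, sa at -0.38, mia at 0.43 and topi at 0.58.

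The testis forms were next compared with the broadly expressed genes of the same family, to ask whether both responded alike. For each pair the log2 difference of the 2 probe sets was taken on each array and compared between groups, which does not depend on the factor of the array. In each of the 5 tTAF pairs the testis gene was lower in the mutant relative to its TFIID counterpart. nht and Taf4 differed most: relative to the control mean of the pair, nht minus Taf4 was -1.32, -1.10 and -0.92 on the mutant arrays, against -0.11, 0.22 and -0.11 on the control arrays. nht itself stood at -0.88 and Taf4, the scaffold subunit of TFIID, at 0.23 (limma adjusted p = 0.157 over all genes).

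The other tTAF pairs differed by less, and by similar amounts. Taf12L minus Taf12 averaged -0.43 (mutant SD 0.0917, control SD 0.0621), mia minus Taf6 -0.39 (0.112 and 0.154), can minus Taf5 -0.39 (0.131 and 0.0978) and sa minus Taf8 -0.33 (0.133 and 0.119, n = 3 arrays per group). mia rose, but Taf6 rose by more, at 0.69 (limma adjusted p = 0.00151 over all genes). Taf12 fell by 0.29 on the log2 scale (adjusted p = 0.0204 in the fit of brighter genes), a call lost without mutant array 2 (0.071), control array 1 (0.0666) or control array 3 (0.058) and without rescaling (0.146). In the fit of all genes Taf5 at -0.10 (0.444) and the X-linked Taf8 at -0.17 (0.289) did not pass. Taf12L minus Taf12 was -0.07 when the probe sets of a gene were averaged.

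Among the MMB pairs, tomb minus mip120, the LIN-54 family counterpart, averaged -0.73 (mutant SD 0.0766, control SD 0.184), as mip120 rose by 0.42 (limma adjusted p = 0.00597 over all genes). aly minus mip130, the LIN-9 family counterpart, averaged 0.10 with overlapping groups (mutant SD 0.423, control SD 0.6, n = 3 each). mip130 lies on X and its signals were dim, from 5.94 to 14.6 over the 6 arrays, so this pair shows little. wuc, a testis relative of lin-52 and a partner of tMAC, fell by 0.53 (adjusted p = 0.00408), but the X-linked lin-52 fell by 1.06 (0.00161), so wuc minus lin-52 averaged 0.52.

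In 7 of the 8 pairs the mutant and control arrays were fully separated. An exact permutation test, two-sided, then has p = 0.1, the lowest that 3 against 3 arrays allow, or 0.114 after Benjamini-Hochberg adjustment over the 8 pairs. For aly and mip130 the same exact test had p = 0.9. No pair could therefore pass, and the differences are given by their size. The pairs share arrays and are not independent of one another. How often other pairs of genes separate was not computed. Among single genes 32.7% lay wholly below and 22.2% wholly above. With probe sets averaged, Taf12L minus Taf12 had p = 0.9 in the exact permutation test.

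**Figure D2:**
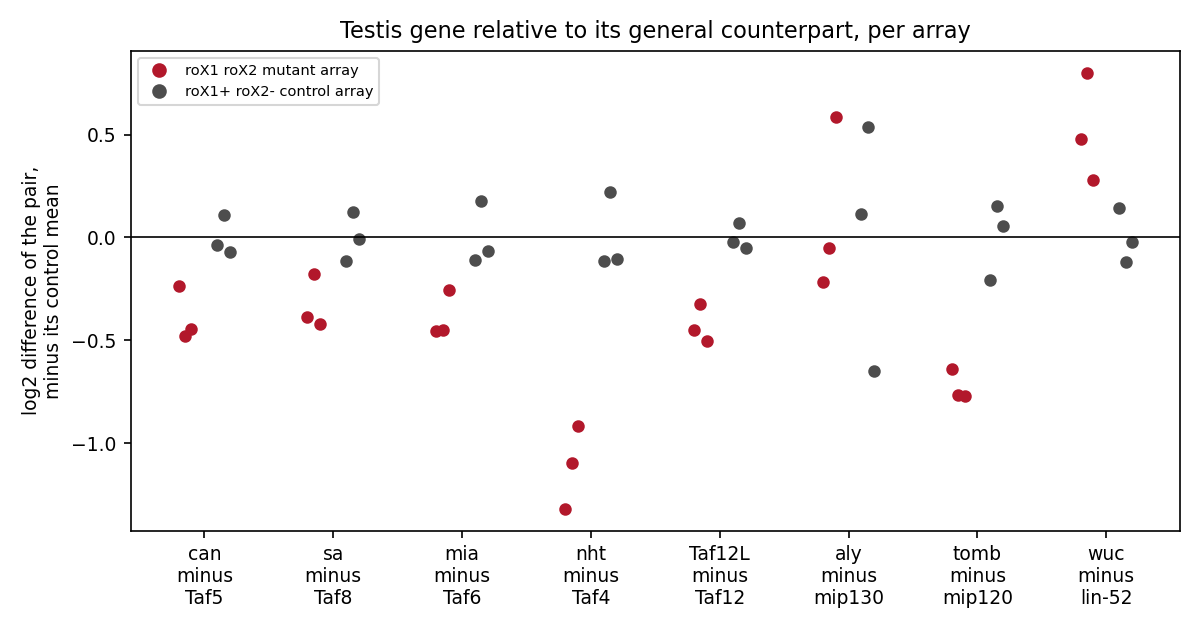
Log2 difference between a testis gene and its general counterpart on each array (vertical axis), set to 0 at the control mean of each pair. Mutant arrays stand left of control arrays; all 5 tTAF pairs and tomb minus mip120 lie below 0 on every mutant array, and wuc minus lin-52 above 0.

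**Figure D3:**
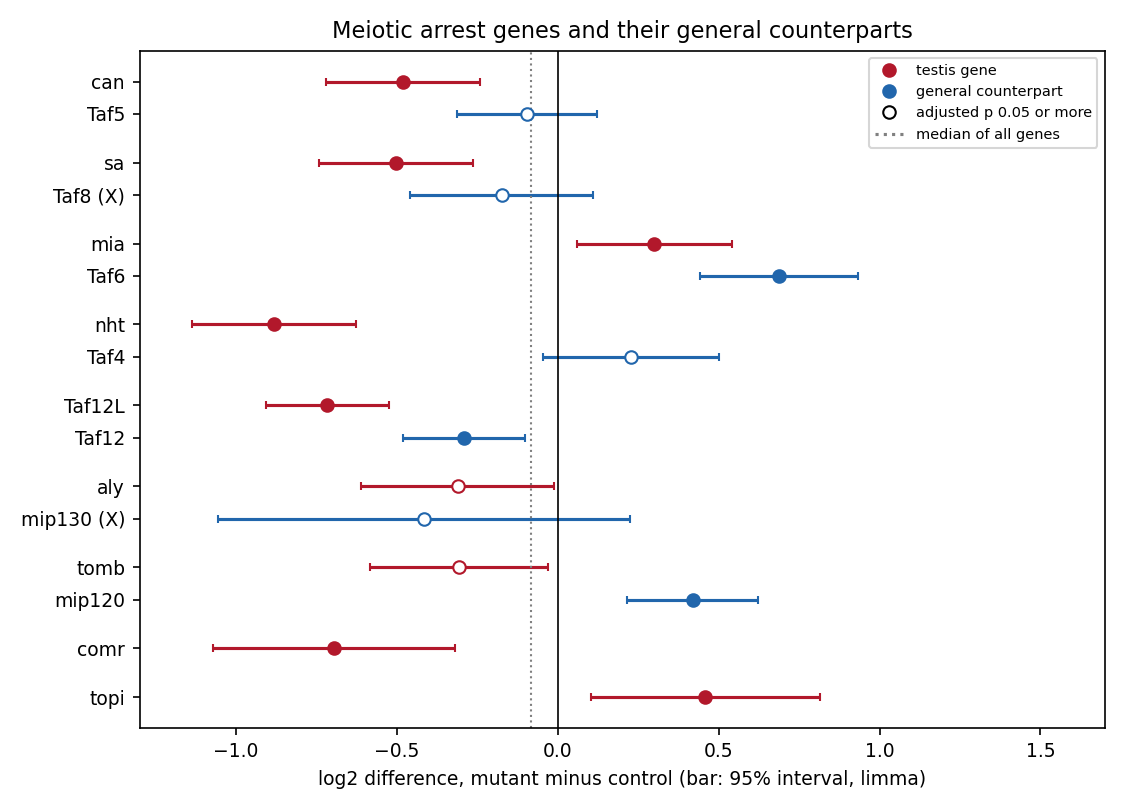
Log2 difference, mutant minus control, with its 95% interval (limma fit of all genes) for the 9 testis genes and the 7 general counterparts of members; open circles did not pass an adjusted p of 0.05, and the dotted line is the median of all genes at -0.08. The intervals of can, sa, nht, Taf12L and comr lie below 0 and those of mia and topi above 0; those of aly and tomb also end just below 0, but these genes did not pass after adjustment.

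The subunits that tMAC shares with other complexes did not pass. mip40, a LIN-37 family subunit, had signals of 98.6, 98.0 and 107 on the mutant arrays, against 113, 108 and 104 on the control arrays, a log2 difference of -0.10 (limma adjusted p = 0.343). Caf1-55, a histone-binding subunit, stood at -0.01 (adjusted p = 0.892). Of 5 further tMAC genes 3 were in the fit of brighter genes, where 0 passed (0 also at an unadjusted p under 0.05, limma). In that fit 32.4% of all genes were called lower and 23.1% higher, and 3 genes are too few to be set apart from these shares. In the fit of all genes, where 25.8% were called lower, wuc fell. There achi, a homeodomain protein gene with a near-identical copy in vis, stood at -0.34 (limma adjusted p = 0.0771), and vis at 0.00 (0.999).

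Of the general TFIID genes 11 were in the fit of brighter genes, where 6 fell and 2 rose, with a median log2 difference of -0.28, against 32.4% lower and 23.1% higher over all brighter genes. Taf9 fell by 0.73 (adjusted p = 0.000405, limma) and Taf10b by 0.56 (0.000716), while Taf1, the largest subunit, rose by 0.69 (0.00117) and Taf6 by 0.69 (0.00108). Taf9 lies on X. Of the 4 MMB/dREAM genes in that fit, E2f2 (-0.38, adjusted p = 0.00568) and the X-linked Rbf (-0.34, 0.0197) fell and mip120 (0.42) and Dp (0.24, 0.029) rose. Rbf did not pass without mutant array 2 (0.0767), mutant array 3 (0.0564), control array 1 (0.061) or control array 3 (0.067), nor without rescaling (0.134). Dp passed on leaving out control array 3 (0.042) and not on leaving out any other array (0.0532 to 0.0871).

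Other regulators of the spermatocyte programme mostly fell. Of 10 genes on the array 8 were in the fit of brighter genes, where 5 fell and 1 rose, with a median log2 difference of -0.31 against -0.06 over all brighter genes. Calls over all brighter genes were 32.4% lower and 23.1% higher. The testis-specific bromodomain genes all fell. tbrd-2 had signals of 37.7, 39.1 and 36.5 on the mutant arrays, against 62.4, 64.8 and 63.7 on the control arrays (log2 -0.75, SE 0.0808, limma adjusted p = 0.000265). tbrd-3 stood at -0.58 (0.00314) and tbrd-1 at -0.53 (0.00146), and Nxt1, an RNA export factor, at -0.30 (0.00871). The falls of Nxt1 and E(bx) were lost without rescaling, where 3 of the 8 fell. The rise was Mi-2, a chromatin remodeller (0.55, 0.0241), which did not pass without mutant array 2 (0.0745) or control array 2 (0.0527).

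Genes known to depend on tMAC and the tTAFs were examined next. Of 18 spermatid differentiation genes on the array 15 were in the fit of brighter genes, where 5 rose and 0 fell (1 lower at an unadjusted p under 0.05, limma), with a median log2 difference of 0.18. Over all brighter genes 23.1% were called higher and 32.4% lower, so the count of rises was not far from the general share. Mst98Cb, a sperm tail protein gene, had signals of 396, 312 and 312 on the mutant arrays, against 187, 197 and 227 on the control arrays. Every mutant array exceeded every control array, and its log2 difference was 0.74 (SE 0.121, adjusted p = 0.00154). Mst98Ca rose by 0.59 (0.00356) and janB by 0.32 (0.0147), and the protamine gene ProtB by 0.28 (0.0456). ProtB has a near-identical copy in ProtA, so its own level is uncertain. janB did not pass without control array 1 (0.0538), and ProtB did not pass without mutant array 1 (0.0919), mutant array 2 (0.125), control array 1 (0.145) or control array 3 (0.104). Without rescaling 8 of the 15 rose, and on leaving out 1 array 2 to 5 did, with 2 without control array 1 and 3 on leaving out control array 3 or either of mutant arrays 1 and 2. fzo, a mitofusin of spermatids, was 1 of 3 with a negative difference, at -0.33 (adjusted p = 0.0609), and it passed as lower without control array 1 (-0.46, 0.0161).

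Of 3 genes of meiotic entry 1 rose and 0 fell (0 also at an unadjusted p under 0.05, limma), against 23.1% higher and 32.4% lower over all brighter genes. bol, a translation regulator of meiosis, had signals of 350, 315 and 304 on the mutant arrays, against 207, 222 and 225 on the control arrays. These did not overlap, and bol rose by 0.56 (SE 0.0851, limma adjusted p = 0.00105). When all probe sets of bol were averaged in the fit of all genes, its difference was 0.94 and did not pass (adjusted p = 0.305). twe, the Cdc25 phosphatase of meiosis, stood at 0.19 (0.119) and CycB, cyclin B, at 0.20 (0.142), and neither passed. Without rescaling both did, twe at 0.31 (0.0285) and CycB at 0.32 (0.0466).

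Among other spermatocyte transcripts 3 of the 4 brighter genes rose and 0 fell (0 also at an unadjusted p under 0.05, limma). The shares over all brighter genes were 23.1% higher and 32.4% lower. Rbp4 was the brighter gene that did not pass, at 0.00 (adjusted p = 0.985). Hsp60B, a chaperonin of the male germ line, had signals of 329, 271 and 232 on the mutant arrays, against 103, 89.2 and 119 on the control arrays. The mutant arrays spread widely but all lay far above the control arrays, and the log2 difference was 1.42 (SE 0.15, adjusted p = 0.000256). betaTub85D, the testis beta-tubulin, rose by 0.62 (0.000629) and fest, a regulator of cyclin B in meiosis, by 0.67 (0.00492). The Y-linked ORY was dim and stood at 0.29 (0.505, fit of all genes). The Y-linked kl-2, kl-3 and kl-5 were also below the signal limit. They stood at 0.11, -0.04 and -0.07 in the fit of all genes and did not pass. Summed over the 8 genes of the list on the array, the signal was 1587 to 1932 on the mutant arrays and 1046 to 1200 on the control arrays. The tTAF sums lay lower in the mutant, and these lay higher, without overlap. Among all single genes 22.2% lay wholly above. betaTub85D was the brightest of these 8 genes, with means of 1001 in the mutant and 650 in the control, so it weighs most in their sums. Whether the regulators differ from these genes in response was not tested.

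**Figure D4:**
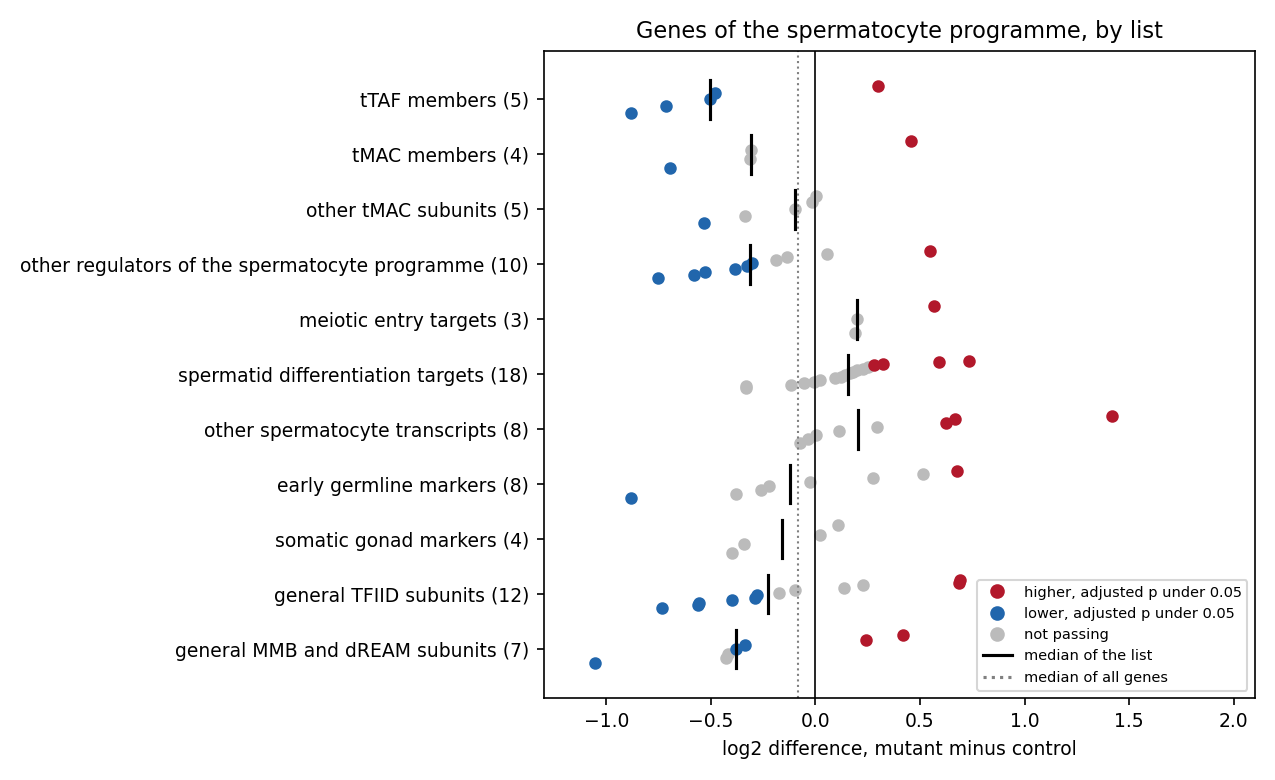
Log2 difference, mutant minus control (limma fit of all genes), of each gene of the spermatocyte programme and related lists; the number of genes on the array follows each list name, coloured points passed an adjusted p of 0.05, and black bars are list medians. tTAF genes centre on -0.50 and spermatid differentiation targets on 0.15, with the median of all genes at -0.08.

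Genes listed as markers of the other cells of the testis were less uniform. RNA came from whole larvae, and whether the signal of these markers came from the testis was not tested. Of 8 early germline genes on the array 4 were bright enough for the filtered fit, where 2 rose and 1 fell. In that fit 23.1% of all genes were called higher and 32.4% lower. bam, which ends the spermatogonial divisions, had signals of 38.7, 37.6 and 62.0 on the mutant arrays, against 82.2, 77.5 and 88.6 on the control arrays (log2 -0.88, SE 0.185, limma adjusted p = 0.00476). Mutant array 3 stood apart from the other mutant arrays but below all controls. bgcn, the partner of bam, rose by 0.68 (adjusted p = 0.00315) and vls, a germ plasm component, by 0.28 (0.0488), with vls lost in the fit of all genes (0.065) and without mutant array 2 (0.155), mutant array 3 (0.131), control array 2 (0.125) or control array 3 (0.0914). aub, a piRNA factor, stood at -0.38 (0.0893, fit of all genes). The summed signal of the 8 genes was 226 to 251 on the mutant arrays and 240 to 276 on the control arrays.

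The 4 markers of the somatic gonad, eya, tj, Sox100B and zfh1, were all below the signal limit, and 0 passed in the fit of all genes (0 also at an unadjusted p under 0.05, limma). In that fit 25.8% of all genes were called lower and 17.5% higher. Of the 4152 genes below the signal limit 667 were called lower and 387 higher. The summed signal of the 4 markers was 44.6 to 57.2 on the mutant arrays and 47.9 to 63.2 on the control arrays. Among larval fat body markers Lsp2 stood at -0.10 (adjusted p = 0.161), Fbp1 fell by 0.26 (0.00367) and Fbp2 rose by 0.29 (0.0423), a call lost in the fit of all genes (0.0563) and on leaving out any 1 array other than mutant array 1 (0.0628 to 0.134). Fbp1 did not pass without rescaling (-0.13, 0.0822). Their summed signal was 6006 to 6773 on the mutant arrays and 6676 to 6821 on the control arrays. The part of these cell types in the differences of the meiotic arrest genes was not tested.

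By position, 3 of the 9 genes lie on 2L, 1 on 2R, 3 on 3L and 2 on 3R, and none lies on X. nht lies between CG15262, which fell by 0.58 (adjusted p = 0.0016, limma fit of all genes), and esg, which fell by 0.50 (0.00372). topi lies beside Whamy, which rose by 0.66 (0.00129), and RpS29, which stood at -0.16 (0.0726). mia lies beside Pcmt, which rose by 0.42 (0.00232), and CG2519, at -0.20 (0.129). tomb lies beside Coq6, which rose by 0.53 (0.00284), and CG14015, at 0.00 (0.997). comr lies beside CG9294, a dim gene that fell by 1.21 (0.0206), and Fili, at -0.29 (0.19). The adjacent genes of aly, can, sa and Taf12L did not pass. Over all genes in the same fit 25.8% were called lower and 17.5% higher, so calls among adjacent genes are common anywhere.

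Over the 6 arrays, the brighter genes whose log2 signal was most like that of Taf12L were CG12659 (Pearson r = 0.9998), CG34015 (r = 0.9994) and Clbn (r = 0.9994). CG12659 and CG34015 lie on X and fell by 1.04 and 1.01 on the log2 scale, and Clbn fell by 0.57. For topi they were rdog (r = 0.9909), Rae1 (r = 0.9843) and CG4577 (r = 0.984), none of which passed. The 6 arrays of each correlation fall into 2 groups, so these values are a description only.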

How the data were processed

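The deposited table holds a linear intensity for every probe set and array. GCOS 1.2 was used, per the submitters' processing notes. According to the design text the authors called genes present or absent from perfect match and mismatch probes, and adjusted every array to an autosomal median of 100. How probes were summarised is not stated. The median of the deposited values was 105 to 107 on the mutant arrays and 100 to 101 on the control arrays, so the set of genes that the authors scaled on stays unknown.

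Control probe sets (183 of 18952) were left out. Names came from the platform table, updated through gene IDs to RefSeq (assembly Release 6 plus ISO1 MT), used only for names, chromosomes and neighbours: 13647 probe sets had 1 gene, 402 several and 4720 none. Values at or below 0 (113 to 169 per array) were set to the lowest positive value. Each gene was represented by its brightest probe set. The upper 50% of probe sets (9384) were kept. Factors that set the median of kept genes on chromosomes 2, 3 and 4 to 100 were 0.246, 0.260 and 0.262 for the mutant and 0.280, 0.279 and 0.279 for the control.

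Tests used limma 3.58.1 under R 4.3.3, fitting group alone by lmFit and moderating with a trended eBayes. The fit of all 11953 genes used the same factors. p-values measure the spread between these preparations. Pairs were compared by exact permutation. The fit was also run on simulated data in which few genes were changed, unlike these data. No result of that run is used here. The 9 genes, the lists and the pairs were chosen with earlier results of these data known. Named genes were all members, their counterparts, up to 4 genes of smallest p per list, and the 3 genes most like the brightest member of each complex. Overlapping and adjacent genes, fzo, Mi-2, Dp, E(bx), Rbp4, kl-2, kl-3 and kl-5 were named after their values were seen. Alternatives covered scaling, filter, offset, probe sets, low values, the variance model, a replicate block and leaving out each array.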

Additional observations from a re-analysis of the deposited data

How the results depend on the processing

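The count of members called lower was 2 of 4 under each alternative that kept these genes, and 5 of 9 with no signal filter (4 of 9 when probe sets were averaged as well). No member was left with the upper 25% of probe sets. The count of members called higher, 2, was 0 to 1 on leaving out 1 array, in both fits. With the replicate block it was 0 in both fits (limma; 2 at an unadjusted p under 0.05 among the 4 brighter members and 1 among all 9), and with eBayes without trend it was 0 in the fit of all genes (2 at an unadjusted p under 0.05). Same-numbered arrays did not deviate together (correlations of -0.342, -0.0644 and -0.385), against -0.358 to 0.508 for arrays of unlike number. With 3 arrays per group, these values cannot settle whether the replicate numbers pair the groups. The block left 1529 higher calls over all brighter genes, against 1805, put topi at adjusted p = 0.0578 and mia at 0.0872 and changed no other member's call. Among the other genes named in the text it also ended the calls of Taf12 (0.0615), Dp (0.0944), janB (0.0505), ProtB (0.0851), vls (0.111) and Fbp2 (0.0638), leaving 2 spermatid targets higher. The median of the 4 brighter members was 0.025 without rescaling and -0.48 over 9 members with no signal filter. The median of the 9 was -0.36 without rescaling, -0.13 with an offset of 50 and -0.36 with the mean over probe sets. The offset compresses dim genes by construction. aly minus mip130 was -0.031 with the offset and ranged from -0.22 to 0.37 on leaving out 1 array; the cause was not tested. The other 7 pairs kept their direction under every alternative run. Without rescaling the calls over all brighter genes were 58.5% rises, against 41.7% as reported. Directions are therefore relative to the median of the brighter autosomal genes. The fit of all genes was planned, and the further alternatives within it were added after seeing the data. Low signal limits the sizes given for comr, nht, can, aly and tomb.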
